A study of Mus musculus with 14 samples.

Results

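Transcripts of 49 genes of the DNA replication machinery were compared between mouse embryonic fibroblasts (MEFs) labelled as control and as knockout (KO) for Tip60, a lysine acetyltransferase encoded by Kat5. The genes were taken by function, as a list of symbols. All 49 were found among the 25275 gene identifiers with a symbol, and all 49 were among the 14327 genes that passed the filter on low counts. The least abundant had 1062 counts over all libraries. RNA-seq covered 14 libraries of MEFs isolated from E13.5 embryos and cultured in 3% O2, and the treatment text, which is the same for every sample, gives 250 nM 4-hydroxytamoxifen (4-OHT). At day 3 there were 3 control (Tip60+/+) and 3 KO (Tip60-/-) libraries and at day 5 there were 4 of each, with days counted from the start of the drug. The sources used here do not give the Cre driver, or say whether control cells received 4-OHT. By their embryo identifiers, the KO cultures belonged to litters 136, 153 and 159 and the control cultures to litters 218 and 219, so litter and genotype cannot be told apart. Males gave 5 of the 7 KO and 1 of the 7 control libraries, and all 3 day 3 controls were female. The day 3 controls replicate 1 and replicate 2 have the same embryo identifier, and most other embryos gave a library at each day, so p-values measure the spread between these cultures.

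DNA is copied once per cell cycle from origins that are prepared in advance. In G1, the origin recognition complex, Cdc6 and Cdt1 load the ring of Mcm2 to Mcm7 onto DNA, and in S phase the kinase Cdc7 with its partner Dbf4 and the factors Cdc45 and GINS turn that ring into a moving helicase. Polymerases alpha, delta and epsilon, the sliding clamp PCNA with its loader RFC, the single-strand binder RPA and the flap nuclease Fen1 with the ligase Lig1 then copy both strands, on deoxynucleotides made by ribonucleotide reductase, thymidylate synthase and thymidine kinase. Transcripts of many of these genes are known to climb as cells enter S phase, under E2F factors, and to be low in resting fibroblasts.

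Promoters of the genes with the largest rises and falls in KO cells are shown first, because the members moved in groups and shared promoter letters are one feature that the list itself did not use. Each window is taken from RefSeq (GRCm38.p6, the assembly of mm10) and runs 5′ to 3′ on the gene's strand from 250 bases before to 50 bases after the transcript start that the table gives. That start can lie inside the outer bounds of the gene that are printed with its values further on, as it does for Tk1, Mcm5 and Mcm8. Capitals mark E2F-type sites (TTTGGCGC, TTTCGCGC, TTTCCCGC or TTTGCCGC, and their 7-letter cores, which lack the first T), CHR elements (TTTGAA, and the form TTTAAA) and CCAAT boxes, all searched on both strands. An 8-letter site contains its core and the types may overlap one another. The windows of Rrm2 (chr12:24708004-24708303, plus strand), Mcm5 (chr8:75109259-75109558, plus strand) and Mcm8 (chr2:132815891-132816190, plus strand) belong to the 3 members with the largest rises at day 3.
Rrm2: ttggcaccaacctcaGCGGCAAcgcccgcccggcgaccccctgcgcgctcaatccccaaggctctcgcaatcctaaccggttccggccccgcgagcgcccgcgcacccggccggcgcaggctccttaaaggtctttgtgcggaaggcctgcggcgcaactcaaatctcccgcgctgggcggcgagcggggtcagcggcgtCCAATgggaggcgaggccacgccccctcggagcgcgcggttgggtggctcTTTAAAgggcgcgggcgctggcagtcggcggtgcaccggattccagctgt
Mcm5: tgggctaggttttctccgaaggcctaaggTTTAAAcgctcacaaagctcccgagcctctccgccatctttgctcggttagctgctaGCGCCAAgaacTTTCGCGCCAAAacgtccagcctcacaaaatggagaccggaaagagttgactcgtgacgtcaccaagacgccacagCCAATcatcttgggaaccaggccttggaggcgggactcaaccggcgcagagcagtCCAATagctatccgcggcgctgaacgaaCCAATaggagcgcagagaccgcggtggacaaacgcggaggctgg
Mcm8: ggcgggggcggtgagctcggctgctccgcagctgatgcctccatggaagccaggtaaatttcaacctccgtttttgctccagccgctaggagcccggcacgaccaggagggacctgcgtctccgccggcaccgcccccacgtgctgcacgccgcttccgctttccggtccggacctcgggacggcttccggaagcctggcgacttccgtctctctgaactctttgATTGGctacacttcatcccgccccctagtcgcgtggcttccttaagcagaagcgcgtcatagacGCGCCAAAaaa
The windows of Mcm2 (chr6:88898731-88899030, minus strand), Tk1 (chr11:117825965-117826264, minus strand) and Pold2 (chr11:5878207-5878506, minus strand, the first of its 2 windows) belong to the 3 members with the largest falls at either day.
Mcm2: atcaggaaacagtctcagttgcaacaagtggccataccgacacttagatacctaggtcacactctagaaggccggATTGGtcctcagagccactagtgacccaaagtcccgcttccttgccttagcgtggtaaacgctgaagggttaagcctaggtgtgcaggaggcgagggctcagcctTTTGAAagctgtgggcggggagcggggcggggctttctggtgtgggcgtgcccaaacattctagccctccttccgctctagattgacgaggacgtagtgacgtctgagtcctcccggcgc
Tk1: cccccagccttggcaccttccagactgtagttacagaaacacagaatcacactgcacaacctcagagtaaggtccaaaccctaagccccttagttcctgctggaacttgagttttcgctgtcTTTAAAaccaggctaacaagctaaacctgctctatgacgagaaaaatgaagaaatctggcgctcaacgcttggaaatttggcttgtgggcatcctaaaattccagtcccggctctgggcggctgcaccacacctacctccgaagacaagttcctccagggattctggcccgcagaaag
Pold2: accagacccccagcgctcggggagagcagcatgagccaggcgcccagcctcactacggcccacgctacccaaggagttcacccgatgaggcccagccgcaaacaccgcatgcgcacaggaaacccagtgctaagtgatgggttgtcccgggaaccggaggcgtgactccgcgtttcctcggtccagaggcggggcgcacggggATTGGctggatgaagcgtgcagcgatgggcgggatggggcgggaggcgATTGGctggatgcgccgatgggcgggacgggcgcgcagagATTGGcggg
Positions in a window are counted from 1 at its 5′ end. Mcm5 had TTTCGCGC at 98 to 105 and, overlapping it on the other strand, TTTGGCGC at 102 to 109, with a core at 87 to 93 and 3 CCAAT boxes. Mcm8 had TTTGGCGC on the other strand at 290 to 297. Rrm2 had a core on the other strand at 16 to 22, a CCAAT box at 201 to 205 and TTTAAA at 251 to 256, at the start itself. The Mcm2, Tk1 and Pold2 windows held no match to an E2F-type site, which says only that these letters are not in these windows.

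The table had windows for 41 of the 49 members, 50 windows in all. An 8-letter E2F-type site stood in the windows of 17 of the 41 (41.5%), against 2.6% of all 27025 genes of the table and 4.62% of the 10994 tested genes with a window. Windows of members and of tested genes had similar GC content (medians 61.3% and 60.7%). CCAAT boxes were found for 58.5% of members, 41.1% of all genes and 43.0% of tested genes, and CHR elements for 29.3%, 30.6% and 22.6%. Among members with a window, 8-letter sites were present in 14 of the 32 that rose over time in control cells and in 3 of the 9 that had no call there. Over time in KO they were present in 5 of the 17 that rose and in 12 of the 24 without a call. At day 3 they were present in 4 of the 14 that were higher in KO, in 1 of the 4 that were lower and in 12 of the 23 without a call. At day 5 the numbers were 2 of the 3 higher, 3 of the 8 lower and 12 of the 30 without a call. A match of letters is a description and not evidence of binding.

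Total counts per library ran from 2187168 (KO day 3 replicate 3) to 39203154 (KO day 3 replicate 2). Kat5 itself was lower in every KO library at both days, at 17.3 to 21.1 CPM (the count scaled to the library's total) against 29.8 to 32.3 CPM (day 3 log2 fold change -0.68 ± 0.0856 SE, edgeR quasi-likelihood adjusted p = 2.02e-05; day 5 -0.75 ± 0.0706, adjusted p = 1.59e-06). An exact permutation test over libraries gave p = 0.1 at day 3, the smallest that 20 labelings allow, and p = 0.0286 at day 5. Kat5 transcript thus stayed at 0.623 of control at day 3 and 0.596 at day 5. These RNA data do not show how much Tip60 protein was left, and the source of the remaining transcript was not tested. The summed level of 10 fibroblast markers was 17500 to 21600 CPM in day 3 controls and 29800 to 32300 CPM in day 3 KO, and 22900 to 27900 CPM in day 5 controls and 18300 to 22700 CPM in day 5 KO, with no overlap between the genotypes at either day. Most of that sum came from Col1a1, Col1a2 and Vim, and single markers went both ways at day 5. Dcn read 13.9 to 60.2 CPM in day 5 controls and 91.5 to 174 CPM in day 5 KO, and Lum 5.16 to 14.5 CPM and 35.5 to 60.9 CPM. Every day 5 KO library was below every day 5 control for Col1a2, Vim and S100a4, and the other markers overlapped. The 5 macrophage markers summed to 69.6 to 94.2 CPM in controls and 44.6 to 64.1 CPM in KO at day 3, and to 64.6 to 89.6 CPM and 63.4 to 111 CPM at day 5. Hba-a1 of red blood cells was at 0 in every library. The 5 skeletal muscle markers, mostly Acta1, summed to 161 to 332 CPM in controls and 139 to 250 CPM in KO at day 3. At day 5 they summed to 255 to 339 CPM and 115 to 186 CPM. In the same order, the 5 endothelial markers summed to 10.7 to 14.8 CPM and 15.5 to 16.7 CPM at day 3. Their day 5 sums were 4.88 to 7.56 CPM and 12.6 to 17.6 CPM. Neural markers were apart at day 3 alone (38.1 to 44.7 CPM and 53 to 75.6 CPM), and epithelial ones overlapped at both days. Control day 5 replicate 4, the only library of litter 219 and the only male control, stood apart from the other day 5 controls: it had the lowest level of that group for 47 of the 49 members, at a median of 0.664 times the mean of the other 3. No share of all tested genes was computed for that rank. Over all counted genes, too, it differed more from the other 3 (chi-square per degree of freedom 37.1 to 79.9) than these from each other (3.3 to 4.55). The 8 cartilage markers, 7 of them tested, summed to 239 to 436 CPM in day 3 controls, 3380 to 3930 CPM in day 3 KO and 2300 to 4450 CPM in day 5 KO, and to 421 to 3380 CPM in day 5 controls. Col2a1, the defining collagen of cartilage, was at 2470 CPM in control day 5 replicate 4 and at 126 to 303 CPM in the other 3. The part of all these markers and of that library's litter in the results was not tested, and KO against control calls of members at day 5 that were gained or lost without that library are given beside the genes.

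More members were called higher than lower in KO at day 3, and more lower than higher at day 5. The order at day 5 turned with sex as a covariate, a fit in which sex and litter cannot be told apart. At day 3, 15 of the 49 were higher in KO (30.6%) and 4 were lower (8.16%), at an edgeR adjusted p below 0.05, whereas 24.6% of all tested genes were called higher and 26.2% lower. The median log2 fold change was 0.29 over the members and 0.00 over all tested genes. At day 5, 3 members were higher (6.12%, background 26.3%) and 10 were lower (20.4%, background 26.2%), with medians of -0.06 and 0.02. The share of higher calls at day 3 was thus near that of all tested genes, and that of lower calls at day 5 was below it. Larger departures from all tested genes were the few lower calls at day 3 and the few higher calls at day 5. Genes called higher at both days were Mcm8, Gins3 and Rpa2, those called lower at both were Mcm2, Cdt1 and Pold2, and Rpa1 and Tyms were called higher at day 3 and lower at day 5. The other 10 members higher at day 3 had no call at day 5, and 25 members had no call at either day. The difference between the KO effects, day 5 minus day 3, was called for 8 members, all of them lower (16.3%, background 7.15%), and for 0 in the other direction (background 7.16%), where 1 member had an unadjusted p below 0.05 and DESeq2 called 0. The 8 were Mcm4, Mcm5, Cdc45, Rfc2, Rpa1, Rrm2, Tyms and Tk1.

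At day 3 every KO library lay above every control library for 16 members (background 28.2% of tested genes) and below for 4 (background 29.6%). At day 5 the corresponding numbers were 4 (background 23.5%) and 5 (background 23.8%). Without control day 5 replicate 4, 1 member was called higher (Gins3) and 20 were called lower at day 5, against 30.2% and 28.5% of the genes tested then, and the difference between days was called lower for 23 members (background 9.91%). The 10 of these 20 that had no call with all libraries were Mcm3, Mcm6, Mcm7, Orc1, Orc6, Gmnn, Dbf4, Gins2, Pole2 and Rrm1. The 15 of the 23 without a called difference with all libraries were Mcm3, Mcm6, Mcm8, Mcm10, Orc6, Cdc6, Gmnn, Gins2, Topbp1, Pola1, Prim1, Prim2, Pole, Rfc5 and Rrm1. KO day 3 replicate 2 had the highest level of its group for 39 of the 49 members, a rank for which no share of all tested genes was computed. Without it, 6 members were called higher at day 3 (Mcm5, Mcm8, Gins3, Rpa1, Rpa2 and Rrm2; background 22%), and the difference between days was called for 4 (background 5.82%). That difference was called for 5 members without day 3 control replicate 3, and at day 5 the count of higher members was 1 without KO day 5 replicate 3 or 4. With sex as a covariate the calls were 26 higher (background 22.2%) and 3 lower (background 23.9%) at day 3. The 11 of these 26 without a call in the main fit were Mcm3, Mcm4, Mcm6, Mcm10, Orc6, Gmnn, Topbp1, Prim2, Rfc2, Fen1 and Rrm1. At day 5 they were 9 higher (background 23.8%) and 7 lower (background 23.5%), so that higher calls then outnumbered lower ones, and the median of the members at day 5 was 0.11. Mcm5, Cdc7, Ticrr, Pola2, Pole and Rfc1 were the 6 higher members gained at day 5. In the fit with sex, sex cannot be told apart from embryo or litter. The female KO libraries were replicate 2 of each day, both of litter 136, and the only male control was control day 5 replicate 4. With library totals in place of TMM scaling the day 5 calls were 6 higher and 7 lower, with a member median of 0.01.

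**Figure D1:**
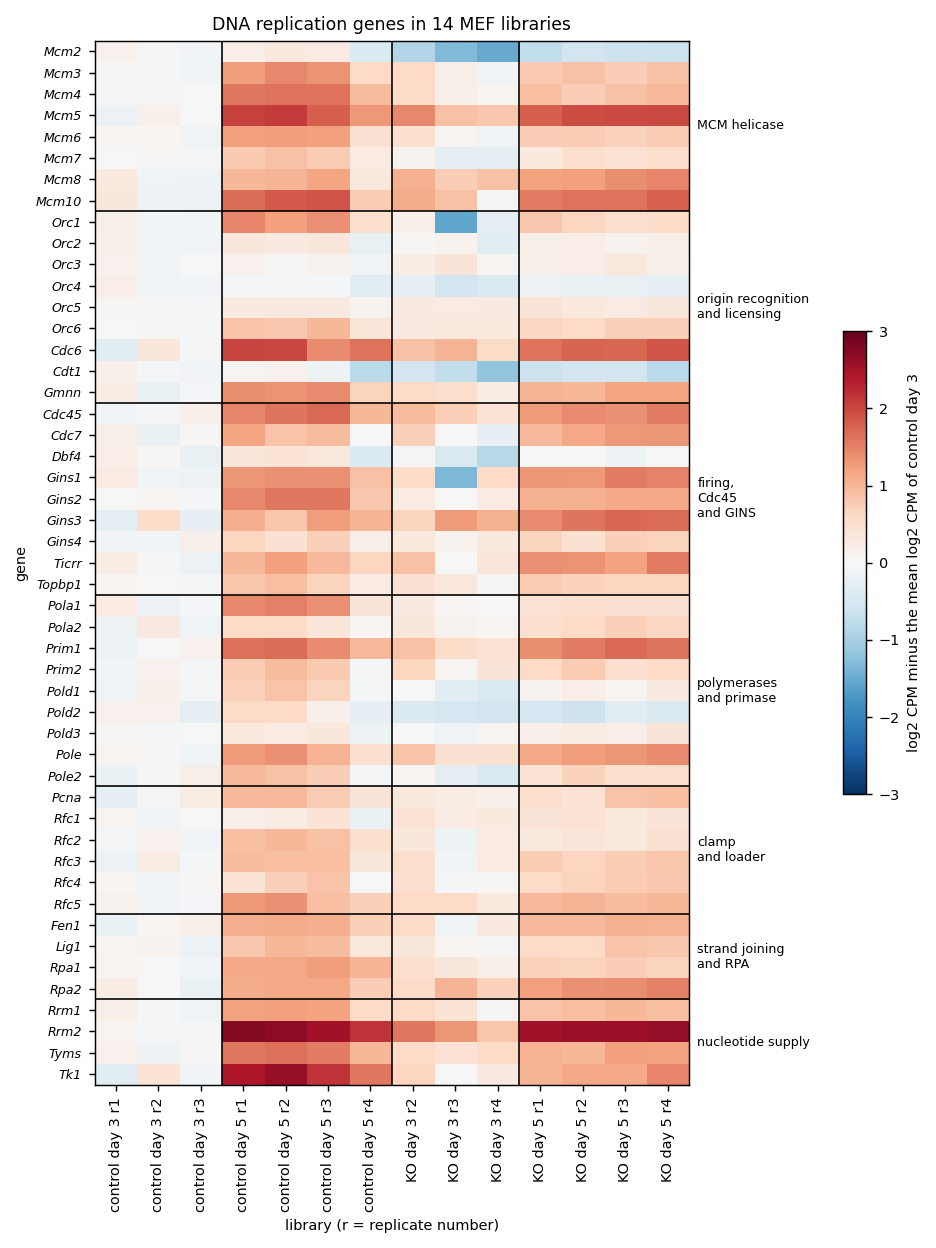
Heat map of the 49 members (rows, grouped by role) in the 14 libraries (columns, r for the replicate number). Colour is the log2 CPM minus the mean log2 CPM of the 3 day 3 controls, with red above and blue below it. The day 5 libraries of both genotypes are mostly red, control day 5 replicate 4 is paler than its group, and Mcm2, Cdt1, Orc4 and Pold2 are blue in KO columns.

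The MCM genes held both the largest fall and one of the largest rises at day 3. Library values are given in replicate order, which is replicates 1 to 3 for day 3 controls, 2 to 4 for day 3 KO and 1 to 4 at day 5. Mcm2 (gene 17216, chromosome 6, 88883474 to 88898780), a subunit of the replicative helicase ring, read 77.0, 68.1 and 67.1 CPM in day 3 controls and 38.2, 28.2 and 24.7 CPM in day 3 KO. At day 5 it read 81.5, 86.7, 84.3 and 53.5 CPM in controls and 42.4, 47.1, 45.9 and 45.0 CPM in KO. Every KO library lay below every control library at both days, and the lowest control value was that of control day 5 replicate 4. The log2 fold change was -1.19 ± 0.178 SE at day 3 (adjusted p = 0.000112) and -0.76 ± 0.146 at day 5 (adjusted p = 0.000689). The test against a 1.5-fold minimum aside, both calls held in every alternative run.

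Mcm5 (gene 17218, chromosome 8, 75109468 to 75128439), another subunit of the same ring, moved the other way. It read 11.5, 14.3 and 13.1 CPM in day 3 controls and 35.0, 23.9 and 22.5 CPM in day 3 KO. The day 5 values were 53.2, 55.4, 44.8 and 31.6 CPM in controls and 44.9, 50.1, 51.3 and 50.7 CPM in KO. The groups were apart at day 3 and overlapped at day 5. The log2 fold change was 1.11 ± 0.21 at day 3 (adjusted p = 0.000687) and 0.09 ± 0.162 at day 5 (adjusted p = 0.674), a difference of -1.02 ± 0.265 between days (adjusted p = 0.0217). That difference lost its call without KO day 3 replicate 2 and without day 3 control replicate 1 or replicate 3 (adjusted p up to 0.077). At day 5 Mcm5 was called higher with sex as a covariate (adjusted p = 0.0486).

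Mcm4 (gene 17217, chromosome 16, 15623897 to 15637400), also of the ring, read 40.8, 38.7 and 39.8 CPM in day 3 controls and 59.3, 45.0 and 42.4 CPM in day 3 KO. On day 5 its levels were 118, 122, 122 and 76.4 CPM in controls and 74.0, 66.8, 73.2 and 78.1 CPM in KO. The KO libraries were above the controls at day 3 without passing the test (0.32 ± 0.166, adjusted p = 0.12), and at day 5 only control replicate 4 lay within their range. The day 5 change was -0.59 ± 0.136 (adjusted p = 0.00261) and the difference between days was -0.91 ± 0.214 (adjusted p = 0.0133). Mcm3, Mcm6 and Mcm7 had no call at either day, with day 3 values of -0.12 to 0.28 and day 5 values of -0.37 to -0.24. Without control day 5 replicate 4 all of these 3 were called lower at day 5, Mcm3 at -0.53 (adjusted p = 0.00132), Mcm6 at -0.51 (adjusted p = 0.000489) and Mcm7 at -0.37 (adjusted p = 0.00217). Mcm3 was also called lower at day 5 with a replicate block (-0.34, adjusted p = 0.0373). With sex as a covariate Mcm4, Mcm3 (adjusted p = 0.00749) and Mcm6 (adjusted p = 0.0203) were called higher at day 3.

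Mcm8 (gene 66634, chromosome 2, 132816137 to 132844197) is not part of the Mcm2 to Mcm7 ring and is known for its work with Mcm9 in recombination. It read 7.87, 5.84 and 5.78 CPM in day 3 controls and 13.4, 10.8 and 11.9 CPM in day 3 KO. By day 5 the readings were 12.9, 13.1, 14.5 and 8.06 CPM in controls and 14.8, 15.04, 17.0 and 17.6 CPM in KO. KO libraries were above controls at both days (0.94 ± 0.202, adjusted p = 0.00154, and 0.42 ± 0.158, adjusted p = 0.037). The day 5 call was absent in 5 of 16 alternatives, among them those without control day 5 replicate 1 or 4 and without KO day 5 replicate 3 or 4 (adjusted p up to 0.0915). Mcm10, an initiation factor, had no call (0.73 ± 0.317 at day 3, adjusted p = 0.0683).

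Per length, the balance within the helicase ring differed between groups. In FPKM, which is CPM divided by gene length, day 3 controls had 19.9 to 22.8 FPKM of Mcm2 and 3.37 to 4.18 FPKM of Mcm5. There the highest of the 6 subunits exceeded the lowest by 5.28 to 6.78 times, with Mcm5 the lowest in all 3 libraries. The highest subunit was Mcm2 in day 3 control replicate 1 and Mcm6 in every other library of all groups. In day 3 KO libraries Mcm2 was at 7.34 to 11.3 FPKM and Mcm5 at 6.58 to 10.2 FPKM. The ratio of the highest to the lowest subunit was 2.97 to 3.26 in these libraries. The ratio was 3.19 to 3.92 in day 5 controls, again with Mcm5 the lowest, and 2.58 to 2.88 in day 5 KO, where Mcm2 was the lowest in all 4. The ranges of the genotypes did not overlap at either day, and control day 5 replicate 4, at 3.24, was within the range of its group. This measure was chosen after its values were seen and has no test. Over the 6 subunits the summed level was 241 to 261 CPM in day 3 controls, 205 to 304 CPM in day 3 KO, 335 to 561 CPM in day 5 controls and 361 to 387 CPM in day 5 KO, with overlap between the genotypes at both days.

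**Figure D2:**
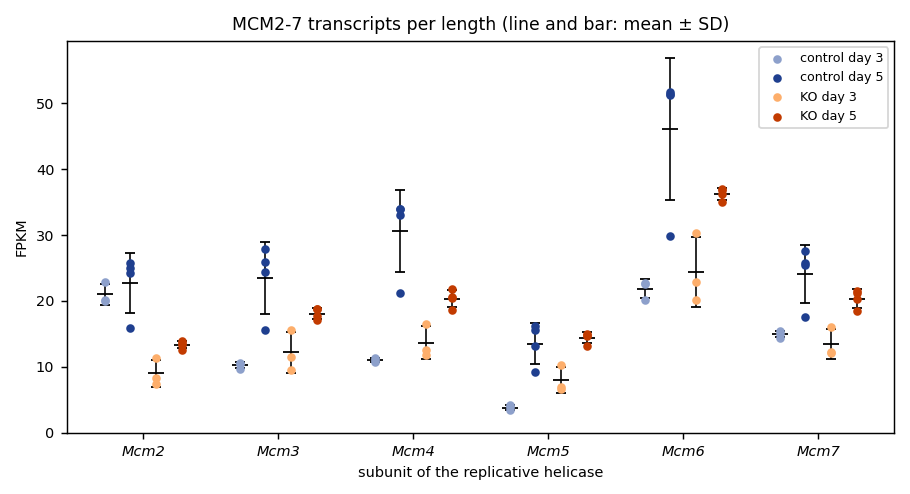
Levels of the 6 subunits of the replicative helicase in FPKM (vertical axis, linear), 1 point per library, with the mean and SD of each of the 4 groups. Mcm5 is the lowest subunit in day 3 controls (3.79 ± 0.409 FPKM) and Mcm2 the lowest in day 5 KO (13.4 ± 0.598 FPKM), and the lowest dark blue point of each subunit is control day 5 replicate 4.

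Origin recognition and licensing genes were called in both directions at day 3 (2 higher, 2 lower, of 9) and in 1 case at day 5 (lower). Cdt1 (gene 67177, chromosome 8, 122568015 to 122573130), the factor that brings the MCM ring to origins, read 21.7, 18.9 and 18.5 CPM in day 3 controls and 13.3, 11.7 and 8.65 CPM in day 3 KO. At day 5 it read 20.6, 21.5, 17.7 and 11.1 CPM in controls and 12.6, 13.3, 13.3 and 11.2 CPM in KO. The groups were apart at day 3, and at day 5 control replicate 4 lay below all KO libraries. The changes were -0.80 ± 0.218 (adjusted p = 0.00731) and -0.50 ± 0.177 (adjusted p = 0.0287), and the day 5 call held in 8 of 16 alternatives. It was absent with sex as a covariate and without control day 5 replicate 1, 2 or 3 or KO day 5 replicate 1 or 4, among others (adjusted p up to 0.241). Its inhibitor geminin, Gmnn, had no call (0.45 ± 0.205 at day 3, adjusted p = 0.0797, and -0.14 ± 0.155 at day 5), but was called lower at day 5 without control day 5 replicate 4 (-0.29, adjusted p = 0.0454).

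Orc4 (gene 26428, chromosome 2, 48902824 to 48952902), a subunit of the origin recognition complex, read 94.1, 74.2 and 77.5 CPM in day 3 controls and 69.0, 54.9 and 60.2 CPM in day 3 KO. The day 5 values were 78.5, 78.2, 78.1 and 64.7 CPM in controls and 72.7, 70.6, 69.9 and 67.3 CPM in KO. The KO libraries were below the controls at day 3 and within their range at day 5. The day 3 change was -0.40 ± 0.106 (adjusted p = 0.00644), or 0.759 of control, and the day 5 value was -0.09 ± 0.0897 (adjusted p = 0.394). Orc5 of the same complex was higher at day 3 (0.27 ± 0.0852, adjusted p = 0.018), as was Cdc6, the loader that acts with Cdt1 (0.75 ± 0.216, adjusted p = 0.01). The Cdc6 and Orc5 calls were absent without KO day 3 replicate 2, and that of Orc5 also without day 3 control replicate 3 (adjusted p up to 0.0632 and 0.0688). Orc1, Orc2, Orc3 and Orc6 had no call at either day, with day 3 values of -0.17 to 0.28 and day 5 values of -0.53 to 0.16. Leaving out control day 5 replicate 4 made Orc1 (-0.71, adjusted p = 0.00273) and Orc6 (-0.22, adjusted p = 0.0126) lower at day 5. Orc1 was also called lower at day 5 by DESeq2 (-0.55, adjusted p = 0.0474), with DESeq2 size factors in edgeR (-0.54, adjusted p = 0.049) and with a replicate block (-0.51, adjusted p = 0.0405).

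Of 9 genes of origin firing, Cdc45 and GINS, 3 were higher at day 3 (Cdc45, Gins3 and Ticrr) and Gins3 was higher at day 5. Cdc45 (gene 12544, chromosome 16, 18780447 to 18811972), a core part of the moving helicase, read 5.36, 5.52 and 6.43 CPM in day 3 controls and 11.1, 9.38 and 7.64 CPM in day 3 KO. On day 5 its levels were 16.01, 17.6, 18.6 and 11.6 CPM in controls and 13.9, 15.5, 14.8 and 17.0 CPM in KO. The groups were apart at day 3 and overlapped at day 5. The changes were 0.72 ± 0.194 (adjusted p = 0.00662) and -0.05 ± 0.146 (adjusted p = 0.789). The difference between days, -0.77 ± 0.243 (adjusted p = 0.047), was called in 7 of 22 alternatives. Of the 14 that leave out a library, it was called without control day 5 replicate 4 or KO day 3 replicate 4 alone, and the day 3 call was absent without KO day 3 replicate 2 (adjusted p = 0.0804).

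Gins3 (gene 78833, chromosome 8, 95633559 to 95645059), a GINS subunit, read 2.51, 4.51 and 2.61 CPM in day 3 controls and 4.93, 7.51 and 6.43 CPM in day 3 KO. By day 5 the readings were 6.56, 5.50, 7.33 and 6.25 CPM in controls and 8.21, 9.44, 10.2 and 9.95 CPM in KO. KO libraries were above controls at both days, by 0.86 ± 0.237 (adjusted p = 0.0076) and 0.57 ± 0.179 (adjusted p = 0.0149). The day 5 call was absent without control day 5 replicate 2 (adjusted p = 0.0525), and the counts of this gene were low. The other GINS subunits Gins1, Gins2 and Gins4 had no call at either day, with values of 0.20 to 0.41 at day 3 and -0.27 to 0.17 at day 5. Gins2 was called lower at day 5 without control day 5 replicate 4 (-0.42, adjusted p = 0.00073), as was its difference between days (-0.62, adjusted p = 0.00663). Ticrr, which helps to load Cdc45, was higher at day 3 (0.57 ± 0.207, adjusted p = 0.0316), a call that was absent without KO day 3 replicate 2 and without day 3 control replicate 2 or replicate 3 (adjusted p up to 0.356). Cdc7, Dbf4 and Topbp1 had no call, with values of -0.40 to 0.31 at day 3 and -0.25 to 0.39 at day 5, although Dbf4 was lower at day 5 without control day 5 replicate 4 (-0.41, adjusted p = 0.021).

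**Figure D3:**
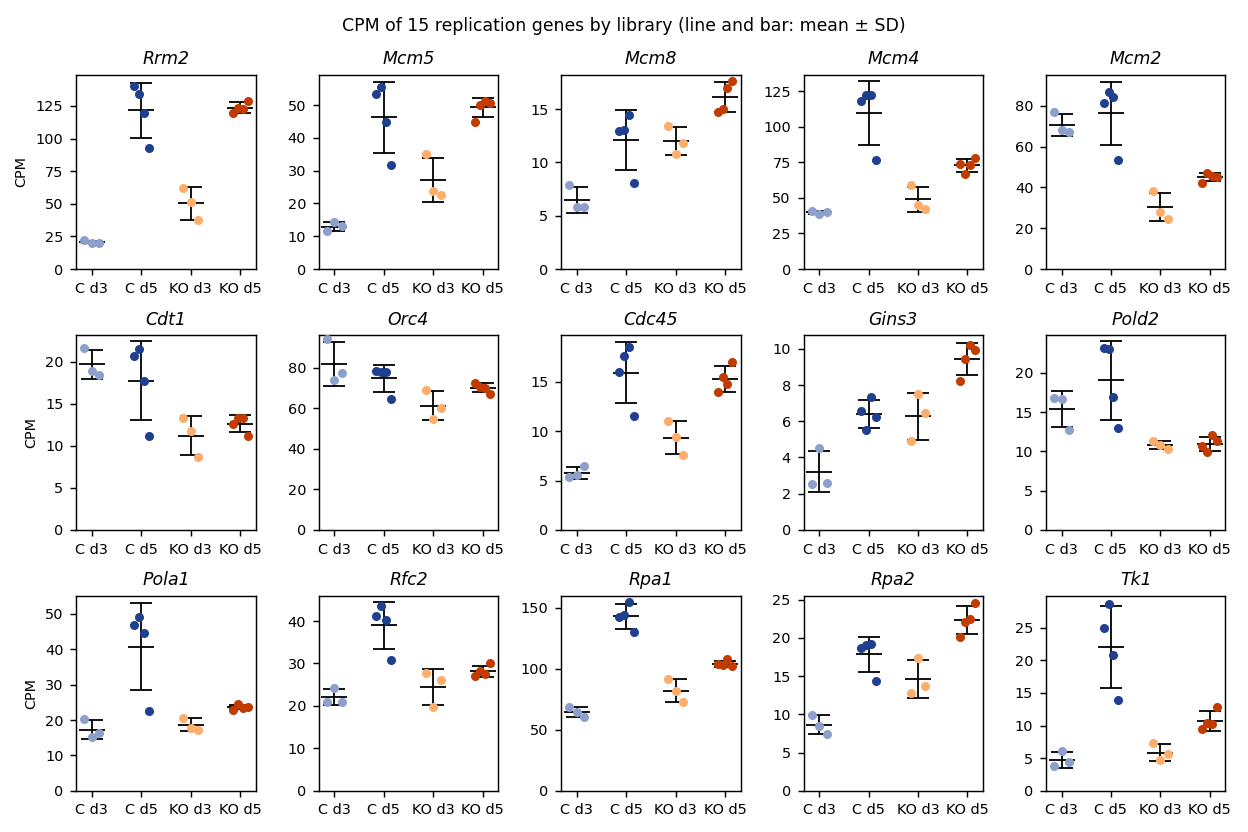
CPM of 15 members in every library (points; C is control, d3 and d5 are the days), with the mean and SD of each group, on linear axes that start at 0. Mcm2 and Pold2 points of KO lie below all control points at both days, and Mcm8, Gins3 and Rpa2 points of KO lie above all control points of the same day.

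Of the 9 polymerase and primase genes, 2 were higher and 1 was lower in KO at day 3, and 3 were lower at day 5. Pola1 (gene 18968, chromosome X, 93304766 to 93632387), the catalytic subunit of the polymerase that begins each new strand, read 20.3, 15.1 and 16.4 CPM in day 3 controls and 20.7, 17.8 and 17.3 CPM in day 3 KO. At day 5 it read 46.8, 49.1, 44.6 and 22.5 CPM in controls and 22.96, 24.5, 23.5 and 23.6 CPM in KO. At day 5, 3 control libraries were above every KO library and control replicate 4 was below them all. The change was 0.14 ± 0.237 at day 3 (adjusted p = 0.658) and -0.79 ± 0.188 at day 5 (adjusted p = 0.00334). The gene is X-linked, and the day 5 call was also made with sex as a covariate, which here cannot be told apart from litter. The primase subunit Prim1 was higher at day 3 (0.66 ± 0.19, adjusted p = 0.00991), without a call when KO day 3 replicate 2 was left out (adjusted p = 0.101), and Pola2 and Prim2 had no call.

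Pold2 (gene 18972, chromosome 11, 5872180 to 5878256), an accessory subunit of polymerase delta, read 16.8, 16.7 and 12.7 CPM in day 3 controls and 11.3, 10.8 and 10.3 CPM in day 3 KO. The day 5 values were 23.2, 23.1, 16.9 and 12.9 CPM in controls and 10.7, 9.86, 12.0 and 11.3 CPM in KO. KO libraries were below controls at both days. The changes were -0.51 ± 0.203 (adjusted p = 0.0499), a call that was met in 3 of 14 alternatives, and -0.81 ± 0.164 (adjusted p = 0.000938), met in all 16. The catalytic subunit Pold1 was lower at day 5 (-0.42 ± 0.152, adjusted p = 0.0323; called in 7 of 16 alternatives) and Pold3 had no call. For polymerase epsilon, Pole was higher at day 3 (0.64 ± 0.193, adjusted p = 0.013), a call absent without KO day 3 replicate 2 (adjusted p = 0.0995), and Pole2 had no call (-0.17 ± 0.247 and -0.15 ± 0.191) except at day 5 without control day 5 replicate 4 (-0.35, adjusted p = 0.0397).

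In the clamp and its loader, Rfc1 and Rfc5 were higher at day 3 (0.32 ± 0.116, adjusted p = 0.0335, and 0.49 ± 0.167, adjusted p = 0.0232), both without a call when KO day 3 replicate 2 or day 3 control replicate 2 or 3 was left out (adjusted p up to 0.119 and 0.115). Rfc2 (gene 19718, chromosome 5, 134582690 to 134598328), a small subunit of the loader, read 21.0, 24.2 and 20.9 CPM in day 3 controls and 27.8, 19.7 and 26.1 CPM in day 3 KO. On day 5 its levels were 41.2, 43.7, 40.2 and 30.8 CPM in controls and 27.1, 28.2, 27.5 and 30.0 CPM in KO. The groups overlapped at day 3, and at day 5 every KO library was below every control. The day 5 change was -0.47 ± 0.11 (adjusted p = 0.00275) and the difference between days -0.67 ± 0.175 (adjusted p = 0.0205), a call absent in 3 of 22 alternatives (library totals, and without KO day 3 replicate 2 or day 3 control replicate 3; adjusted p up to 0.0655). Exons of Rfc2 share 952 bases (15.1%) with the gene Lat2 on the opposite strand in GENCODE M21, and the sources used here do not give the strand setting of the counting. The clamp gene Pcna had no call (0.22 ± 0.176 and -0.11 ± 0.142), nor did Rfc3 and Rfc4.

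Of the RPA subunits, Rpa1 and Rpa2 are members, and both were called at each day, with opposite directions at day 5. Rpa1 (gene 68275, chromosome 11, 75300259 to 75348454), the large subunit of the single-strand binder, read 68.9, 64.4 and 60.7 CPM in day 3 controls and 91.3, 81.6 and 73.0 CPM in day 3 KO. By day 5 the readings were 142, 144, 155 and 130.3 CPM in controls and 104, 103, 108 and 102 CPM in KO. All KO libraries were above the controls at day 3 and below them at day 5. The changes were 0.35 ± 0.088 (adjusted p = 0.00461) and -0.45 ± 0.0736 (adjusted p = 0.000159). Their difference of -0.80 ± 0.115 had the smallest adjusted p of the members (0.000674), and all 3 calls held in every alternative apart from the test against a 1.5-fold minimum.

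Rpa2 (gene 19891, chromosome 4, 132768360 to 132778746), the middle subunit, read 9.92, 8.48 and 7.46 CPM in day 3 controls and 12.7, 17.4 and 13.8 CPM in day 3 KO. At day 5 it read 18.7, 19.1, 19.2 and 14.4 CPM in controls and 20.2, 22.1, 22.5 and 24.6 CPM in KO. KO libraries were above controls at both days, by 0.71 ± 0.156 (adjusted p = 0.00181) and 0.33 ± 0.12 (adjusted p = 0.0332). The day 5 call was absent in 4 of 16 alternatives, those without control day 5 replicate 4 and without KO day 5 replicate 2, 3 or 4 (adjusted p up to 0.0954). The smallest subunit, Rpa3, belongs to the list of further genes described last and was the one subunit called lower at day 3, at 8.21, 7.55 and 8.39 CPM in controls and 5.14, 4.22 and 6.13 CPM in KO (-0.59 ± 0.198, adjusted p = 0.0231). Every KO library was below every control, and at day 5 Rpa3 did not pass (-0.00 ± 0.157, adjusted p = 0.986). Fen1 and Lig1 had no call at either day (0.34 ± 0.15 and 0.15 ± 0.165 at day 3).

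Nucleotide supply held the largest rise of the members and, outside the MCM genes, the largest fall. Rrm2 (gene 20135, chromosome 12, 24708254 to 24714146), the regulated subunit of ribonucleotide reductase, read 22.0, 20.2 and 20.1 CPM in day 3 controls and 62.3, 51.6 and 37.2 CPM in day 3 KO. The day 5 values were 140.2, 134, 119.6 and 92.9 CPM in controls and 119, 123, 123 and 129 CPM in KO. The groups were apart at day 3 and overlapped at day 5. The changes were 1.29 ± 0.176, or 2.44-fold (adjusted p = 5.22e-05), and 0.02 ± 0.138 (adjusted p = 0.916), and their difference was -1.27 ± 0.223 (adjusted p = 0.00261). The large subunit Rrm1 had no call at either day (0.36 ± 0.165 and -0.17 ± 0.14), and was called lower at day 5 without control day 5 replicate 4 (-0.30, adjusted p = 0.0198).

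Tk1 (gene 21877, chromosome 11, 117815519 to 117826087), the cytosolic thymidine kinase of S phase, read 3.76, 6.15 and 4.38 CPM in day 3 controls and 7.27, 4.69 and 5.63 CPM in day 3 KO. On day 5 its levels were 25.0, 28.6, 20.8 and 13.9 CPM in controls and 9.40, 10.4, 10.2 and 12.8 CPM in KO. The groups overlapped at day 3 and were apart at day 5. The changes were 0.38 ± 0.276 (adjusted p = 0.264) and -1.05 ± 0.202, or 0.482 of control (adjusted p = 0.000624). The difference between days was -1.43 ± 0.342 (adjusted p = 0.0132), with an adjusted p of 0.067 without KO day 3 replicate 2. Tyms, which makes thymidylate from dUMP, was higher at day 3 (0.56 ± 0.173, adjusted p = 0.0146) and lower at day 5 (-0.34 ± 0.131, adjusted p = 0.0382). Its difference between days (-0.91 ± 0.217, adjusted p = 0.0134) was called in all 22 alternatives, whereas the day 5 call was met in 6 of 16.

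**Figure D4:**
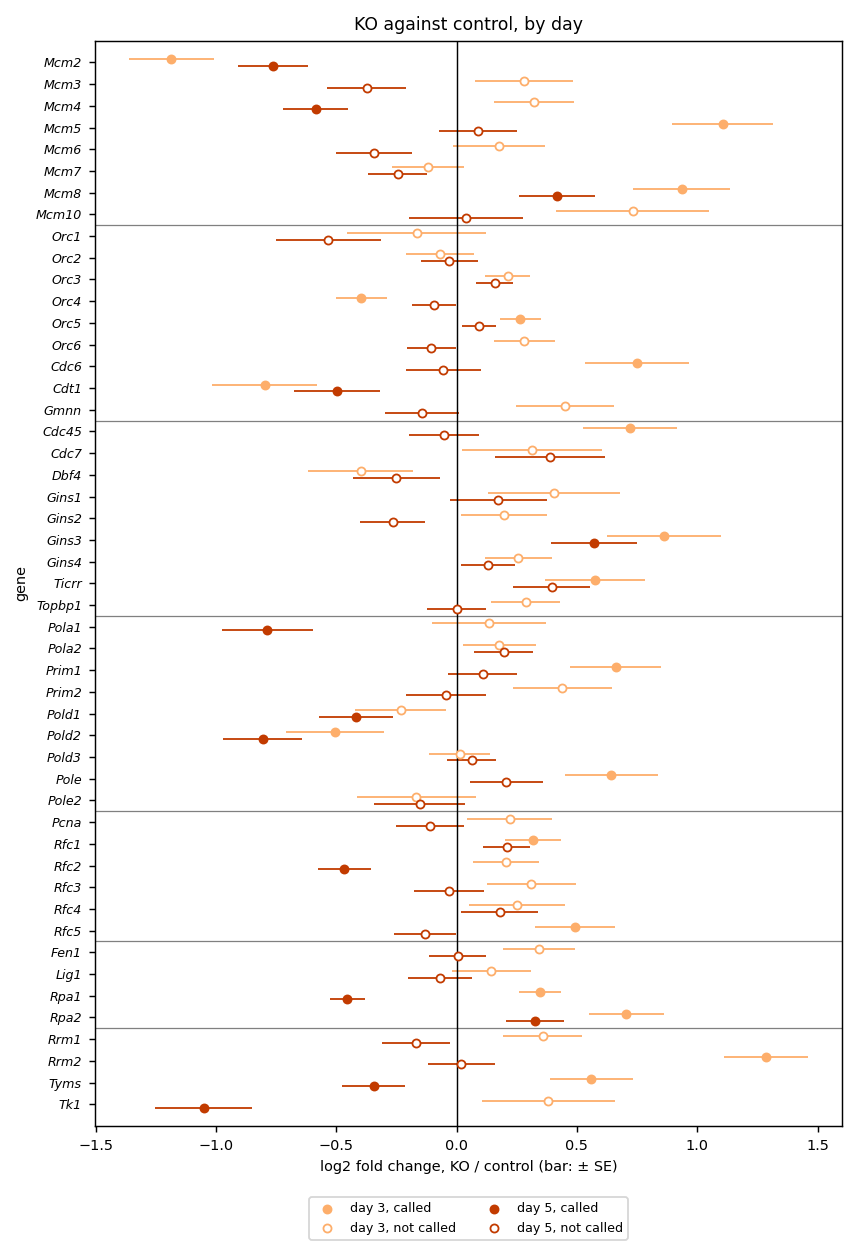
Log2 fold change of KO against control for the 49 members (rows, grouped by role) at day 3 (orange) and day 5 (red), with SE bars. Filled points passed an adjusted p below 0.05. Most day 3 points lie right of 0 (39 of 49), and Mcm2, Cdt1 and Pold2 lie left of it, filled, at both days.

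Within control cells most members rose from day 3 to day 5. Of the 49, 40 were higher at day 5 (81.6%, background 18.3%) and 0 were lower (background 19.9%; 0 at an unadjusted p below 0.05 and 0 by DESeq2), with a median log2 fold change of 0.90. Within KO cells 22 were higher (44.9%, background 4.98%) and 0 were lower (background 7.06%; 0 at an unadjusted p below 0.05 and 0 by DESeq2), with a median of 0.54. All 8 members whose KO effect differed between days had the smaller rise in KO, since that difference is also the difference between these rises. Rrm2 rose by 2.55 ± 0.17 in control and 1.29 ± 0.16 in KO, Mcm5 by 1.83 ± 0.197 and 0.81 ± 0.187, and Rpa1 by 1.14 ± 0.0828 and 0.34 ± 0.0818, all called in both genotypes. In KO the calls of Mcm5 and Rpa1 were absent without day 3 replicate 4, and that of Rpa1 also with a replicate block by embryo (0.34, adjusted p = 0.0508). Tk1 rose by 2.20 ± 0.248 in control and had 0.76 ± 0.244 in KO (adjusted p = 0.0556).

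All 4 genes of strand joining and RPA and all 4 of nucleotide supply rose in control, as did 7 of 8 MCM genes, 8 of 9 firing genes, 7 of 9 polymerase and primase genes, 5 of 6 clamp and loader genes and 5 of 9 origin genes. The 9 members without a call were Mcm2, Orc2, Orc3, Orc4, Cdt1, Dbf4, Pold2, Pold3 and Rfc1, with values of -0.14 to 0.32 in control, and 0 of these 9 passed in KO. Mcm2 was thus the one subunit of the helicase ring that did not pass in control (0.11 ± 0.158, adjusted p = 0.606). Its value over time in KO was 0.54 ± 0.167 (adjusted p = 0.0525), and it was called there in 7 of 16 alternatives. In KO the called counts were 6 of 9 firing genes, 4 of 4 of strand joining and RPA, 3 of 4 of nucleotide supply, 3 of 8 MCM genes, 3 of 9 origin genes, 2 of 9 polymerase and primase genes and 1 of 6 of the clamp and loader. Control day 5 replicate 4 was above all day 3 controls for 34 members and each of the other 3 day 5 controls for 46, ranks for which no share of all tested genes was computed. Without that library 44 members rose. In KO the count was 7 without day 3 replicate 4, 11 without day 3 replicate 3 or day 5 replicate 4, 12 without day 5 replicate 3, and 34 with sex as a covariate. With library totals in place of TMM scaling, the median of all genes in KO over time shifted by 0.12 and 33 members were called higher, while 72.8% of all calls were then higher, against 41.4%.

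**Figure D5:**
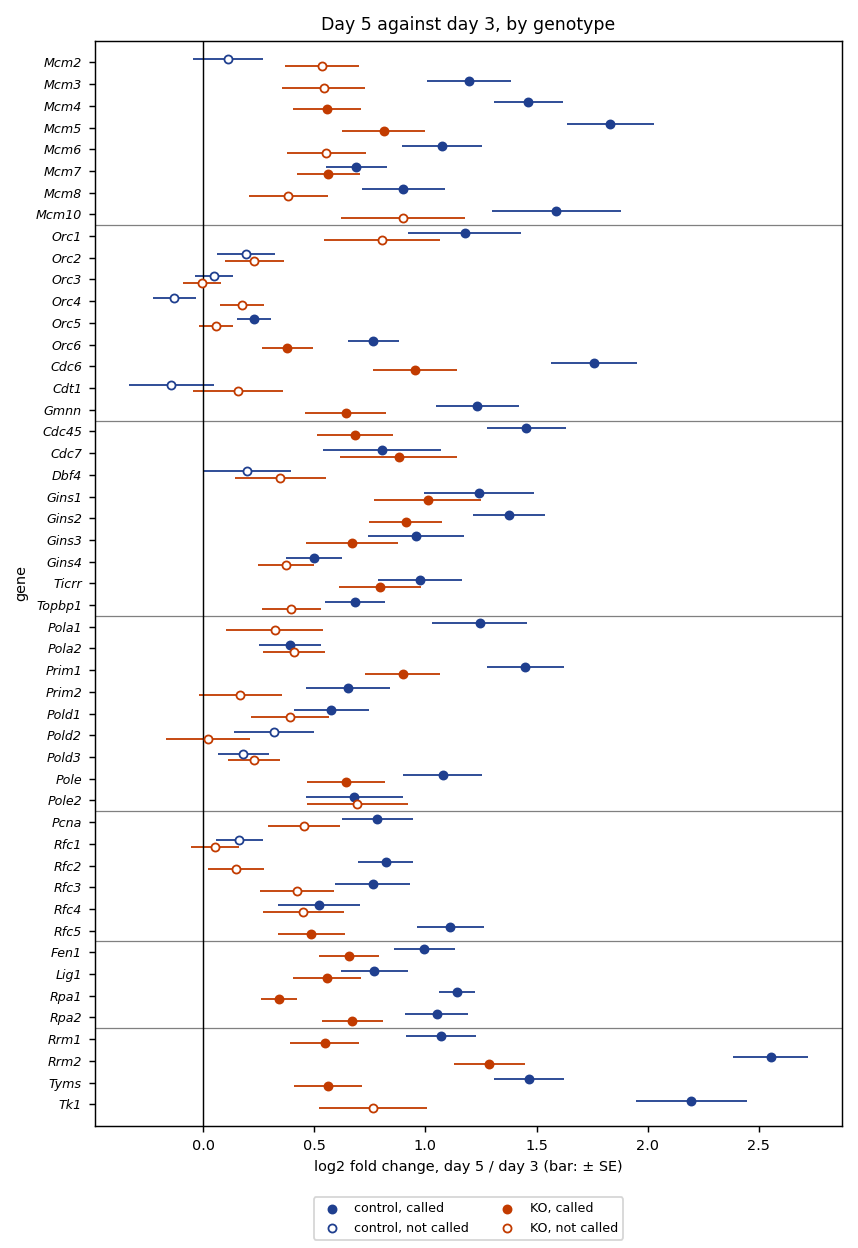
Log2 fold change of day 5 against day 3 for the 49 members (rows, grouped by role) in control (blue) and KO (red), with SE bars and filled points for an adjusted p below 0.05. Most blue points lie right of the red point of the same gene, and for 9 genes, among them Mcm2, Orc4, Cdt1 and Cdc7, the blue point lies left.

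Summed over the 49 members, libraries held 1189 to 1314 CPM in day 3 controls, 1231 to 1599 CPM in day 3 KO, 1602 to 2429 CPM in day 5 controls and 1902 to 1999 CPM in day 5 KO. The sums overlapped between genotypes at both days, and the 4 day 5 KO libraries lay between control replicate 4 and the other 3 controls. In bulk RNA, fewer cells in S phase and less of each transcript per cell cannot be told apart. Of general markers of cycling cells, 9 summed to 278 to 363 CPM, 352 to 562 CPM, 619 to 979 CPM and 678 to 741 CPM in the same order of groups. Of these 9, 5 were higher in KO at day 3 (55.6%, background 24.6%) and 2 were lower at day 5 (22.2%, background 26.2%). Over time all 9 rose in control (background 18.3%) and 7 in KO (77.8%, background 4.98%). Top2a is in this list and in the next. The marker Mki67 was higher in KO at day 3 (0.55, adjusted p = 0.0213) and lower at day 5 (-0.46, adjusted p = 0.0199), and the cyclin gene Ccne1 likewise (0.44, adjusted p = 0.00179, and -0.52, adjusted p = 6.42e-05). The part of cycling in the members' values was not tested.

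Further genes of replication and S phase, a list of 45 made from general knowledge and all tested, gave 12 higher and 9 lower calls at day 3 (26.7% and 20%, background 24.6% and 26.2%). At day 5 there were 5 higher and 11 lower calls (11.1% and 24.4%, background 26.3% and 26.2%). The difference between days was called for 2 higher (Recql4 and Rif1; 4.44%, background 7.16%) and 3 lower (Wdhd1, Clspn and Samhd1; 6.67%, background 7.15%). All of these shares are near or below those of all tested genes. At day 3 Samhd1, which breaks down deoxynucleotides, read 49.4 to 52.2 CPM in controls and 109.7 to 122 CPM in KO (1.20 ± 0.184, adjusted p = 0.000143). Clspn, the mediator of the replication checkpoint, had 5.87 to 6.96 CPM in controls and 11.8 to 14.4 CPM in KO (1.05 ± 0.19, adjusted p = 0.000421), and Mms22l was also higher (0.66 ± 0.127, adjusted p = 0.000664). The helicase gene Recql4 was lower, at 10.8 to 15.6 CPM in controls and 2.31 to 5.35 CPM in KO (-1.61 ± 0.337, adjusted p = 0.00127), followed by the phosphatase gene Cdc25a (-0.51 ± 0.118) and the topoisomerase gene Top1 (-0.38 ± 0.0914). For Samhd1, Clspn, Mms22l, Recql4, Cdc25a and Top1 the libraries of the genotypes did not overlap at day 3. Without KO day 3 replicate 2, 7 of the 45 were higher (background 22%).

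At day 5 Top1 read 145 to 172 CPM in controls and 100.3 to 110.4 CPM in KO (-0.59 ± 0.0775, adjusted p = 2.73e-05), so that every KO library was below every control. The CDK-binding gene Cks1b (-0.48 ± 0.11, adjusted p = 0.00224) and the origin-associated gene Lrwd1 (-0.44 ± 0.107, adjusted p = 0.00356) were lower too. Of the 5 genes higher at day 5, the smallest adjusted p values were those of Atad5, which unloads PCNA (0.49 ± 0.131, adjusted p = 0.00588), Tonsl (0.44 ± 0.123, adjusted p = 0.00778) and its partner Mms22l (0.30 ± 0.0982, adjusted p = 0.0198). The others were Pole4 (0.25 ± 0.0835, adjusted p = 0.0204) and Rrm2b (0.26 ± 0.0926, adjusted p = 0.0302). Samhd1 and Recql4 did not pass at day 5 (0.01 ± 0.152 and 0.16 ± 0.271), and their differences between days were -1.19 ± 0.238 (adjusted p = 0.00572) and 1.78 ± 0.431 (adjusted p = 0.0145). These values include control day 5 replicate 4, which read 192.9 CPM of Samhd1 and 3.27 CPM of Recql4. Samhd1 was at 108.6 to 111.7 CPM in control day 5 replicates 1 to 3 and at 121.8 to 142.5 CPM in day 5 KO. Recql4 was at 6.62 to 9.12 CPM and 6.22 to 7.76 CPM in the same libraries. Over time in control, 32 of the 45 rose (71.1%, background 18.3%) and 2 fell (Recql4 and Rif1; 4.44%, background 19.9%). In KO 19 rose (42.2%, background 4.98%). Without control day 5 replicate 4, 17 of the 45 were lower at day 5 (background 28.5%) and 14 differed between days in the lower direction (background 9.91%). The count of lower genes was 7 without control day 5 replicate 1, 2 or 3, and that of higher genes 3 without control day 5 replicate 1 or KO day 5 replicate 3.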

How the data were processed

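RNA from the 14 MEF libraries was prepared with a stranded poly(A) kit and sequenced as 80 bp paired-end reads, per the labels' protocols. The deposited values are raw counts per gene, with no normalization. Per the submitters' processing notes, the counting used featureCounts on mm10. The sources used here do not give the aligner, the annotation or the strand setting. Per the file headers, each file also holds a gene length, which the authors give in bases.

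Lines without a gene identifier (909 of 27179 per file, 0.194% to 0.315% of a library's counts) were left out. Symbols and positions came from RefSeq (GRCm38.p6). Xist, Tsix and Y-linked genes (112) were kept out of the tests. Counts were tested with edgeR 4.0.16 in R 4.3.3, after filterByExpr and TMM scaling, by its quasi-likelihood test. The robust fit had 4 group means over the 14 libraries, which left 10 residual degrees of freedom. Benjamini-Hochberg adjustment ran over all 14327 tested genes of each of the 5 comparisons. Called means an adjusted p below 0.05. The SE is that of the log2 fold change. CPM uses TMM-scaled totals, and FPKM is CPM per 1000 bases of the deposited length. The script was tested on simulated data with known fold changes. Errors describe the spread between these cultures, and depth limits the members with the fewest counts most.

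The members and all lists were chosen with earlier results of these data known. Library values are given in full for the 3 largest called rises and falls of KO against control at each day, for the member of each role with the smallest adjusted p and for the 4 smallest adjusted p of the difference between days. From the further replication genes, the 3 called genes with the smallest adjusted p in each direction at each day are named. Clspn, Samhd1, Wdhd1, Rif1, Mki67, Ccne1, Col2a1 and the other genes given by single values were named beside these, some after their values were seen.

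In KO, same-numbered libraries of the 2 days come from the same embryo, per the labels, so the numbers pair them. After removal of the group means, such pairs correlated at -0.0348, -0.0367 and 0.239. In control, libraries of the same embryo correlated at 0.0149, 0.114 and -0.0784. Between genotypes the number is only a number. Within groups, all library pairs differed beyond counting noise (chi-square per degree of freedom 3.3 to 79.9), the day 3 controls of one embryo identifier included (15.9), so no library was merged in the main fit. Alternatives were DESeq2 1.42.0, other scalings, no filter, only the groups compared, sex or a replicate block as covariate, a test against a 1.5-fold minimum, and leaving out each library.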

Additional observations from a re-analysis of the deposited data

Results flagged for a closer look

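A screen for libraries far from the others of their group covered the day 5 groups of the 49 members and 16 further genes, 130 groups in all. Chance marks about 1 in 20 groups of genes not picked by their values. The 16 are genes named in this report, some after their values were seen, so that rate does not hold for them. The screen marked 18 groups, and 17 of these were in control day 5 replicate 4, the only library of litter 219. In that library, and lowest of the 4, stood Mcm2 at 53.5 CPM, Mcm4 at 76.4 CPM, Mcm6 at 86.7 CPM, Orc4 at 64.7 CPM, Orc5 at 18.7 CPM, Gmnn at 8.86 CPM and Dbf4 at 42.5 CPM. The same was found for Gins1 at 4.43 CPM, Pola1 at 22.5 CPM, Rfc3 at 8.86 CPM, Fen1 at 20.2 CPM, Rpa2 at 14.4 CPM and Rrm1 at 179 CPM. Outside the members, Mms22l at 15.7 CPM and Mki67 at 136 CPM were the lowest there, and Samhd1 at 193 CPM and Col2a1 at 2470 CPM the highest. The remaining gene was Wdhd1, lowest in KO day 5 replicate 1 at 20.3 CPM. The genes of one library are not independent of each other.

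The KO effect differed between the days, by the edgeR test of the difference itself, for 8 members. The differences on the log2 scale, day 5 minus day 3, were -1.43 for Tk1, -1.27 for Rrm2, -1.02 for Mcm5, -0.91 for Mcm4, -0.91 for Tyms, -0.80 for Rpa1, -0.77 for Cdc45 and -0.67 for Rfc2. Of the further genes, Samhd1 (-1.19), Mki67 (-1.01), Ccne1 (-0.96), Clspn (-0.84) and Wdhd1 (-0.81) differed in the same direction, and Recql4 (1.78) and Rif1 (0.60) in the other.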

How the results depend on the processing

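No called value changed sign under an alternative that was run. Each count gives members called out of 49 unless the 45 further genes are named. Leaving out each library in turn gave 6 to 18 higher and 3 to 4 lower members at day 3, 1 to 4 higher and 7 to 20 lower at day 5, 4 to 23 lower for the difference between days, 34 to 44 higher over time in control and 7 to 24 in KO. For the 45 further genes the ranges were 7 to 14 higher and 6 to 9 lower at day 3, 3 to 5 higher and 7 to 17 lower at day 5, and 1 to 2 higher and 1 to 14 lower for the difference. Kat5 ranged from -0.75 to -0.61 at day 3 and from -0.79 to -0.72 at day 5 in these runs.

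With sex as a covariate the members called were 26 higher at day 3, 9 higher at day 5, 13 lower for the difference and 34 over time in KO, and the further genes 7 lower at day 5 and 9 lower for the difference. With library totals only, 6 members were higher and 7 lower at day 5, and of the further genes 7 were lower at day 5 and 1 was lower for the difference. Genes called higher were then 58.9% of all calls at day 5 and 68% of all calls of the difference, against 50.1% and 50% with TMM. DESeq2 called 6 of the further genes lower for the difference. Tested against a 1.5-fold minimum, 2 members were higher and 1 was lower at day 3, 0 and 1 at day 5, 0 differed between days, 21 rose in control and 1 in KO. The further genes then gave 3 higher and 1 lower at day 3, 0 and 0 at day 5, and 0 for the difference in either direction, and Kat5 (-0.68) did not pass at day 3. That test asks for a larger change by construction. With 7-letter E2F cores in place of 8-letter sites, 63.4% of members with a window had a match (10.9% of all genes, 19.2% of tested genes). Otherwise the cause was not tested.

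With a replicate block, 28 members rose over time in KO, and with a replicate block by embryo 23, against 22 without. In control the numbers were 40 and 42 against 40. For the difference between days a replicate block gave 12 members and, of the further genes, 8 lower. The block by embryo gave 12 members, and of the further genes 1 higher and 6 lower. This last fit, and one without litter 219 and 1 day 3 control of the shared embryo (41 members rose in control), were chosen after seeing the data.

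Of the members called as reported, those also called in every alternative, the 1.5-fold test aside, were 9 of 19 at day 3 (Cdt1, Gins3, Mcm2, Mcm5, Mcm8, Orc4, Rpa1, Rpa2 and Rrm2), 7 of 13 at day 5 (Mcm2, Mcm4, Pola1, Pold2, Rfc2, Rpa1 and Tk1), 4 of 8 for the difference (Mcm4, Rpa1, Rrm2 and Tyms), 33 of 40 in control over time and 6 of 22 in KO (Cdc6, Fen1, Gins2, Prim1, Rpa2 and Rrm2).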

Other observations

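Ranks of single libraries describe the members over time without a fit. In KO, all 4 day 5 libraries were above all 3 day 3 libraries for 39 members, and in control for 34, where control day 5 replicate 4 lay within or below the day 3 range for the other 15. The share of all tested genes that separated in this way over time was not computed, so these counts cannot be set against all genes. The day 5 KO libraries were close to each other, with summed member levels of 1902 to 1999 CPM, while the day 3 KO libraries ranged from 1231 to 1599 CPM.

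In GENCODE M21, exons of 18 members overlap an exon of another gene, 14 of them a protein-coding gene. The largest shares were those of Fen1 (78.8%, with the antisense gene Gm10143), Gins2 (67.3%, with Gse1) and Orc2 (29.8%, with Nif3l1), all on the opposite strand. Cdc45 (5.96%, with Ufd1), Orc4 (5.98%, with Acvr2a) and Tk1 (1.6%, with Afmid) had smaller ones. Reads of such genes can be told apart only where the counting used strand.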
